A study of Mus musculus with 14 samples.

Results

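The endothelial identity, flow and adhesion genes were a set of 34 genes of the aortic valve, chosen by name among the 56941 genes of the count table. The set comprised 12 genes of endothelial identity and junctions (Pecam1, Cdh5, Esam, Cldn5, Emcn, Egfl7, Mmrn2, Ecscr, Robo4, Vwf, Plvap and Icam2), 6 growth factor receptors (Kdr, Flt1, Tek, Tie1, Eng and Acvrl1) and 4 transcription factors (Erg, Sox7, Sox17 and Sox18). It also held 5 genes of the flow response and anticoagulation (Klf2, Klf4, Nos3, Thbd and Procr), 4 leukocyte adhesion molecules (Icam1, Vcam1, Sele and Selp) and 3 lymphatic or valve endothelial genes (Prox1, Flt4 and Pdpn). All 34 passed the minimum mean count of 10 and were tested. The valves came from 14 wild type male C57BL/6J mice, all fed a Breslow Western diet and 8 weeks old at the start. The Ctrl mice (n = 4) were untreated. The LY mice (n = 2) received LY272015, which blocks HTR2B, a receptor for serotonin, at 3 mg/kg, and the AngII mice (n = 4) received angiotensin II from an osmotic pump at 1000 ng/kg/min for 28 days. The AngII+LY mice (n = 4) received both. Hearts were perfused with PBS, leaflets were dissected, and RNA of the whole leaflet was sequenced. The design text places the AngII and AngII+LY valves 48 hours after pump removal, while the methods describe removal in only some of the infused mice, so whether every one of these valves was taken after the infusion had ended is not settled. Some dosed mice bear a different compound number in their labels, and the labels and the design text differ on how often the drug was given.

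The libraries held 20990655 to 73128220 counts, and the 34 genes together took 0.361 to 1.0% of them. Mitochondrial transcripts took 4.0 to 7.52% (Ctrl), 8.62 to 9.76% (LY), 9.83 to 25.5% (AngII) and 10.1 to 20.2% (AngII+LY) of counts, with AngII replicates 3 and 4 highest. The libraries Ctrl 1, AngII 4 and AngII+LY 4 stood apart in genes of other cell types. Ctrl 1 held the most smooth muscle RNA, AngII 4 had the smallest library and the most platelet RNA, and AngII+LY 4 held the most cardiomyocyte RNA. All 12 cardiomyocyte, 9 adipocyte and 9 smooth muscle markers were detected in every group beside the valve markers. In bulk RNA, fewer endothelial cells and less RNA per endothelial cell cannot be told apart.

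Valve leaflets are covered on both faces by a single layer of endothelial cells. These cells hold their junctions with VE-cadherin and claudins, and they sense shear stress from the blood. Steady laminar flow induces the transcription factors KLF2 and KLF4, which raise endothelial nitric oxide synthase and thrombomodulin and restrain inflammation. Inflamed endothelium displays selectins and the immunoglobulin ligands VCAM1 and ICAM1, on which leukocytes roll and then adhere.

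Levels were first compared between genes as TPM, which are counts divided by exon length and scaled to 1 total in every library. In Ctrl valves Klf2 was the most abundant of the 34, at 897 ± 160 TPM (SD, n = 4). Its lowest Ctrl mouse, at 785 TPM, lay above the highest Ctrl value of Esam, 549 TPM, which encodes an endothelial adhesion molecule and came second at 403 ± 120 TPM. Pecam1 (CD31) at 317 ± 133, Eng (endoglin) at 294 ± 108 and Nos3 (endothelial nitric oxide synthase) at 280 ± 120 TPM followed, and their ranges overlapped with that of Esam. The group of Erg and the SOX factors spanned a wide range, from 209 ± 76.1 TPM for Sox18 to 18.7 ± 6.46 for Erg. The lowest levels were those of Prox1, the master regulator of lymphatic endothelium, at 9.21 ± 2.96, and of the guidance receptor Robo4 at 12.5 ± 6.32 TPM. By group mean Klf2 also headed the order in the other groups, at 766 TPM (LY), 431 TPM (AngII) and 456 TPM (AngII+LY). In AngII valves Vcam1 was second by mean, at 373 TPM, and in AngII+LY valves Procr, the endothelial protein C receptor, reached 207 TPM. Among AngII mice Klf2 ran from 178 to 677 TPM and Vcam1 from 205 to 469 TPM, so the 2 ranges overlapped. The TPM scale shares its total with mitochondrial transcripts, so groups were compared on TMM-normalized counts only.

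**Figure D1:**
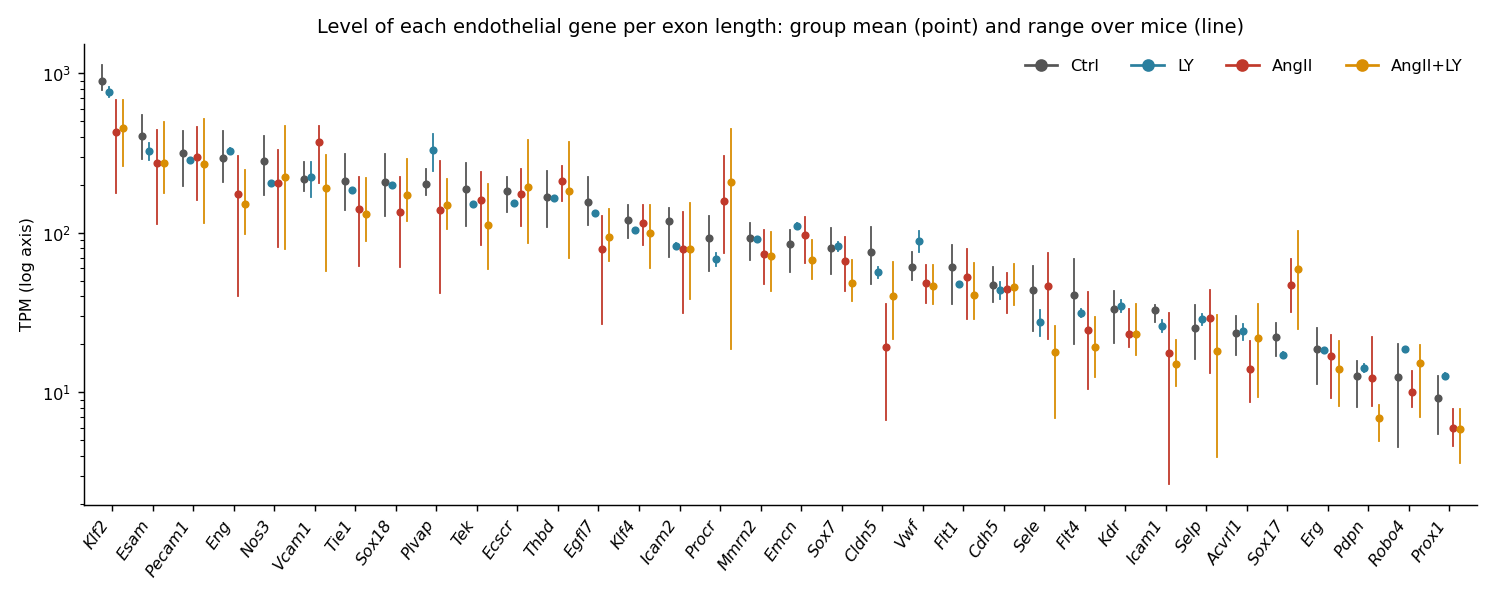
Mean TPM (points, log axis) and range over mice (lines) of the 34 genes in Ctrl, LY, AngII and AngII+LY valves, ordered by the Ctrl mean. By the mean, Klf2 is first in all 4 groups and Prox1 is last in all 4, and the AngII ranges of Cldn5 and Icam1 reach far below their Ctrl ranges.

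Emcn and Vcam1 have the lowest GC content of the 34 genes over their exons (39.1 and 40.9%), while Klf2 (62.3%) and Cldn5 (60.5%) are among the 3 highest, and the comparisons below separate the 2 pairs. Their promoters are therefore printed, as the stretch within 250 bases before the start that holds no annotated exon, on GRCm39 with starts from GENCODE vM39, 5′ to 3′ on the strand of the gene. Emcn is read from chr3:137046544-137046793 on the + strand, Vcam1 from chr3:115923356-115923597 on the − strand, Klf2 from chr8:73072476-73072725 on the + strand and Cldn5 from chr16:18595437-18595596 on the + strand.
Emcn: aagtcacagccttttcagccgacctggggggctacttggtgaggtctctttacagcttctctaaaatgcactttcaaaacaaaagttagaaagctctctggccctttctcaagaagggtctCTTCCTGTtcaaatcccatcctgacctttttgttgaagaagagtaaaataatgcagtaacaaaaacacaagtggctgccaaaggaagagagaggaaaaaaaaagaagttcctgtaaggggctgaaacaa
Vcam1: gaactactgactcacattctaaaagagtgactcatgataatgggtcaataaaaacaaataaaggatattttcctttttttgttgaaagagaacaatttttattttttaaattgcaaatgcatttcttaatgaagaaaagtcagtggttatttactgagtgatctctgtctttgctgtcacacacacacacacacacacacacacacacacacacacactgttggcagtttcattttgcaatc
Klf2: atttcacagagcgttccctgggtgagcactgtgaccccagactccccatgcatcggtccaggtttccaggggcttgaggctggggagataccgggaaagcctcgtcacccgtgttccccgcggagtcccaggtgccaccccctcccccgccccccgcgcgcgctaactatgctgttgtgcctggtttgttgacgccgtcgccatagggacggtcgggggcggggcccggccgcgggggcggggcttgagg
Cldn5: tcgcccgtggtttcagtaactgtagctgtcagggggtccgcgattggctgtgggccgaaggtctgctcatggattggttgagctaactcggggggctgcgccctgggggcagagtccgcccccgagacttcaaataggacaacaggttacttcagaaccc
The GC content of these stretches is 42.4, 33.5, 68.8 and 60.0% in that order. Capitals mark a match to the whole of ACNGGAAG, an ETS consensus, here on the opposite strand. Shorter parts of that consensus, such as GGAA, are not marked. The whole consensus was found in the 250 bases of 4 of 34 genes (Ecscr, Emcn, Flt1 and Sele) and in 6.67% of 19042 promoters of the genes tested. On both strands an NF-kB consensus was found in 4 of 34 genes against 4.27%, ACAATG (SOX) in 5 against 7.77%, a MEF2 consensus in 1 against 3.1% and CCACACCC (a CACCC box) in 0 against 3.06%, and none of these matches lies in the 4 stretches printed. A match is a description of the letters and not a bound site.

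AngII was compared with Ctrl to ask how the valve endothelium of infused mice differed from that of untreated mice. Sox17, Vcam1, Thbd and Emcn were higher and Cldn5 and Klf2 were lower at an unadjusted p under 0.05 in edgeR's quasi-likelihood test. These were 6 of 34 genes (17.6%), where the same cut-off took in 25.2% of all 19145 genes (13.4% higher and 11.7% lower). In this fit the share in the endothelial set was thus no larger than that of all genes. Below, it was larger with GC correction and with Ctrl 1, AngII 4 and AngII+LY 4 left out. It was not larger with libraries scaled to other endothelial genes. None of the 34 passed the call rule, a Benjamini-Hochberg adjusted p under 0.05 with an absolute log2 fold change above 0.5, and neither did any of the 19145 genes (0%). The lowest adjusted p in the set was 0.0588, that of Sox17. DESeq2 under the same rule called Sox17, Vcam1, Emcn and Cldn5, 4 of 34, against 18.6% of the genes with an adjusted p. The median log2 fold change of the set was 0.17, with 19 genes above 0 and 15 below, beside −0.06 over all genes. The mice did not overlap in 5 genes, Sox17, Vcam1, Emcn, Procr and Cldn5, against 15.0% of all genes (7.46% higher and 7.56% lower).

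**Figure D2:**
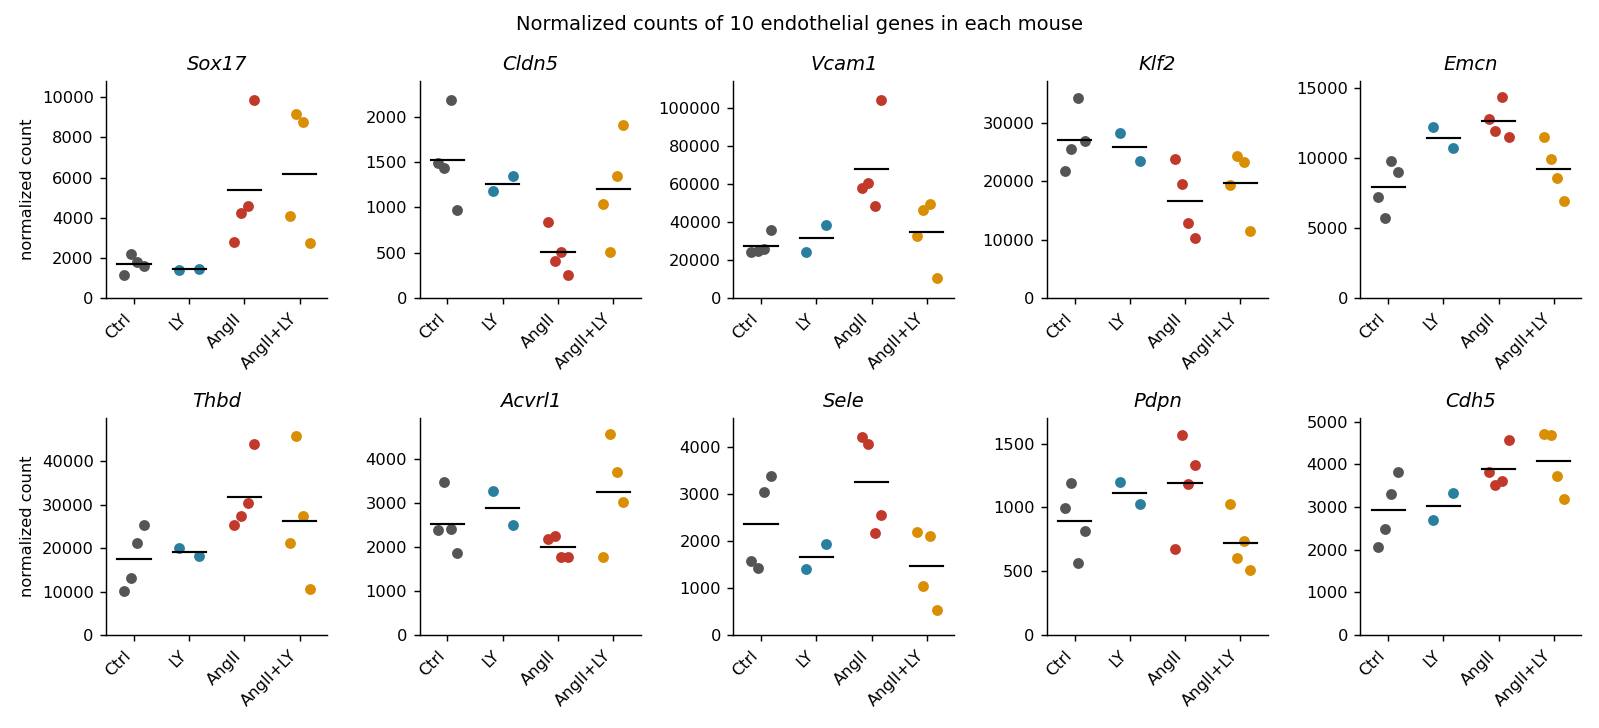
TMM-normalized counts (linear axes from 0) of 10 of the genes in each mouse (points), with group means (lines). The AngII points of Sox17, Vcam1 and Emcn lie above and those of Cldn5 below all Ctrl points, and the AngII+LY points of Sox17 stay above them.

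Among the identity and junction genes, Cldn5 stood lowest against Ctrl. It encodes claudin-5, the tight junction protein of endothelium. Ctrl mice had 1486, 1430, 2180 and 972 normalized counts and AngII mice 844, 411, 513 and 258. Every AngII mouse lay below every Ctrl mouse. The fitted log2 fold change was −1.58 (standard error 0.41, 95% interval −2.45 to −0.70, edgeR adjusted p = 0.0595), or 0.335 of the Ctrl level. Emcn (endomucin), a sialomucin of the venous and capillary surface, lay the other way. Its Ctrl mice had 7244, 5727, 9776 and 8992 normalized counts and its AngII mice 12748, 11940, 14318 and 11505. The difference of 0.67 (standard error 0.20, edgeR adjusted p = 0.0798) had no overlap between the groups. Pecam1, the adhesion receptor by which endothelium is commonly recognised, had 26480, 29919, 62010 and 60924 in Ctrl against 67964, 65778, 42010 and 45828 in AngII. The Ctrl mice of Pecam1 split into a low and a high pair and covered most of the AngII range (log2 fold change 0.31, 95% interval −0.49 to 1.10). The other 9 genes of the group ran from −0.62 for Egfl7, a secreted endothelial matrix protein, to 0.41 for Cdh5 (VE-cadherin), each with an unadjusted p above 0.05.

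None of the 6 growth factor receptors reached an unadjusted p under 0.05 in AngII against Ctrl. Kdr (VEGF receptor 2) had 2403, 5407, 5608 and 4126 normalized counts in Ctrl and 3216, 4365, 4626 and 4920 in AngII, a log2 fold change of −0.03 (95% interval −0.66 to 0.59). The AngII mice of Kdr lay inside the Ctrl range. Estimates for the others lay between −0.47 for Eng, a TGF-beta co-receptor, and 0.20 for Flt1 (VEGF receptor 1). Eng was lowest in AngII 3 and AngII 4, at 16144 and 8500, below its lowest Ctrl mouse at 21130.

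Sox17 had the largest log2 fold change of the 34 genes in AngII against Ctrl. It encodes an endothelial SOX factor of the arterial lineage. Its Ctrl mice had 1154, 2221, 1802 and 1614 normalized counts, its AngII mice 2818, 4245, 4571 and 9857 and its AngII+LY mice 4092, 9175, 8789 and 2741. The 8 mice that received AngII were all above the 4 Ctrl mice and the 2 LY mice, which had 1418 and 1468. The log2 fold change was 1.66 (standard error 0.42, 95% interval 0.76 to 2.56), a 3.16-fold difference. It stayed at an unadjusted p under 0.05 in all 20 alternatives, from 1.04 to 2.27. The related factors Sox7 and Sox18, which act with Sox17 in vessel development, were at 0.18 (95% interval −0.32 to 0.67) and −0.26 (−0.90 to 0.39). Erg, an ETS factor that maintains endothelial identity, had 694, 599, 1124 and 1258 in Ctrl and 1252, 1134, 839 and 1330 in AngII, which overlapped (0.31, 95% interval −0.30 to 0.92).

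In the flow and anticoagulant group, Klf2 was lower and Thbd higher. Klf2 had 21784, 25544, 34202 and 26885 normalized counts in Ctrl and 23919, 19543, 12949 and 10244 in AngII. The lowest values were again those of AngII 3 and 4, and AngII 1 lay within the Ctrl range. Its log2 fold change was −0.70 ± 0.29 (SE, adjusted p = 0.148 by edgeR). Without Ctrl 3, AngII 3 or AngII 4 it was −0.57, −0.60 and −0.53, each with an unadjusted p above 0.05. Thbd (thrombomodulin), the cofactor that turns thrombin toward protein C activation, had 10199, 13063, 21242 and 25388 in Ctrl against 25248, 27406, 30360 and 43932 in AngII. The lowest AngII mouse of Thbd was just under the highest Ctrl mouse, and the log2 fold change was 0.86 ± 0.39 (SE, adjusted p = 0.182 by edgeR). Without Ctrl 1, Ctrl 2, AngII 3 or AngII 4 it was 0.67, 0.74, 0.88 and 0.66, again with an unadjusted p above 0.05. Procr, which presents protein C to thrombomodulin, ranged from 1799 to 3733 in Ctrl and from 3898 to 8846 in AngII, without overlap. The exact two-sided permutation p of 0.0286, the smallest that 4 mice against 4 allow, follows from that lack of overlap. The edgeR log2 fold change of Procr, 1.21, had an unadjusted p of 0.0666. Klf4 and Nos3 were at 0.44 (95% interval −0.07 to 0.96) and −0.12 (−1.07 to 0.82). With GC correction Klf2 was at −0.10 and Nos3 at 0.42, both with an unadjusted p above 0.05, and Klf4, Thbd and Procr were at 1.13, 1.01 and 1.68 with an unadjusted p under it.

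Of the leukocyte adhesion molecules, Vcam1 was higher in AngII and Icam1 was not. Vcam1, the ligand of integrin VLA-4, had 24343, 25013, 25845 and 35736 normalized counts in Ctrl and 57746, 60465, 48468 and 103971 in AngII. No AngII mouse reached down to the Ctrl range, and the log2 fold change was 1.29 ± 0.39 (SE, adjusted p = 0.0821 by edgeR), a 2.44-fold difference. Vcam1 is also expressed by fibroblasts and smooth muscle, so its counts here are not endothelial alone. Icam1, the ligand of leukocyte beta-2 integrins, had 2249, 2556, 2415 and 1961 in Ctrl and 2581, 2241, 663 and 357 in AngII. AngII 1 and 2 lay near the Ctrl mice and AngII 3 and 4 were far below them (−0.65, 95% interval −1.61 to 0.31). E-selectin (Sele) and P-selectin (Selp), which catch rolling leukocytes, were at 0.47 and 0.65 with unadjusted p of 0.28 and 0.147.

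Prox1 had 628, 1205, 1604 and 1276 normalized counts in Ctrl and 1168, 850, 1126 and 1122 in AngII. The AngII values lay inside the Ctrl range. Its log2 fold change was −0.14 (95% interval −0.78 to 0.49). Flt4 (VEGF receptor 3) was at −0.39 and Pdpn (podoplanin), which marks lymphatic endothelium and fibroblasts, at 0.41, neither at an unadjusted p under 0.05.

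Without Ctrl 1, AngII 4 and AngII+LY 4, 6 of 34 genes were again at an unadjusted p under 0.05 in AngII against Ctrl, with Procr in place of Thbd, beside 13.6% of all genes in that fit. Sox17 was then at 1.04, Vcam1 at 0.94, Emcn at 0.67, Klf2 at −0.62 and Cldn5 at −1.37. Thbd was at 0.48 with an unadjusted p of 0.144. AngII 4 held the highest value of Sox17.

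AngII+LY was compared with AngII to ask what differed when the HTR2B antagonist was given during the infusion. The comparison shares its AngII mice with AngII against Ctrl, so a high or low AngII mouse enters both. Cldn5 and Acvrl1 were higher and Emcn, Vcam1, Sele and Pdpn lower at an unadjusted p under 0.05, 6 of 34 genes against 22.5% of all genes (10.1% higher and 12.4% lower). No member and no other gene passed the call rule with edgeR (0%), and the lowest adjusted p in the set was 0.107. DESeq2 called Cldn5 and Sele, 2 of 34, against 14.5% of the genes with an adjusted p. The median log2 fold change of the set was 0.03, with 20 genes above 0 and 14 below, beside −0.02 over all genes. The mice did not overlap in 2 genes, Emcn and Sox7, both lower, against 11.1% of all genes (5.45% higher and 5.66% lower).

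Cldn5 had 1034, 510, 1340 and 1906 normalized counts in AngII+LY mice. AngII+LY 2 lay inside the AngII range and the other three above it. The log2 fold change against AngII was 1.24 (standard error 0.40, 95% interval 0.37 to 2.10, edgeR adjusted p = 0.107), and against Ctrl it was −0.34 (95% interval −1.19 to 0.51). The highest value was that of AngII+LY 4, the library richest in cardiomyocyte RNA, and without Ctrl 1, AngII 4 and AngII+LY 4 the log2 fold change was 0.71 with an unadjusted p above 0.05. Emcn had 11503, 9947, 8559 and 6935 in AngII+LY mice, just below its lowest AngII mouse at 11505 (−0.45, standard error 0.20, edgeR adjusted p = 0.202). Leaving out any 1 of 6 of these 8 mice took the unadjusted p of Emcn above 0.05, with log2 fold changes of −0.34 to −0.48. Without Ctrl 1, AngII 4 and AngII+LY 4 it was −0.38 (unadjusted p = 0.111), and with GC correction it was 0.12, where AngII minus Ctrl was 0.08.

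Acvrl1 (ALK1), the endothelial receptor for BMP9 and BMP10, had 2389, 3487, 2409 and 1854 normalized counts in Ctrl, 2178, 2261, 1784 and 1780 in AngII and 1764, 4563, 3703 and 3015 in AngII+LY. AngII+LY 1 was as low as the AngII mice and the others were above them. The log2 fold change was 0.70 ± 0.27 (SE, adjusted p = 0.142 by edgeR). Without AngII+LY 2 it was 0.52, with an unadjusted p of 0.0688, and without Ctrl 1, AngII 4 and AngII+LY 4 it was 0.69, with one of 0.0634. The remaining receptors lay between −0.42 for Tek (TIE2), the angiopoietin receptor, and 0.07 for Kdr. Kdr had 4991, 2937, 3334 and 6771 in AngII+LY, an interval of −0.56 to 0.70 for its log2 fold change.

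Of the 4 adhesion molecules, Vcam1 and Sele were lower in AngII+LY than in AngII at an unadjusted p under 0.05 and Selp and Icam1 were not, and with GC correction none of the 4 was. Vcam1 had 32659, 46445, 49270 and 10686 normalized counts, against 48468 to 103971 in AngII. The lowest value, in AngII+LY 4, was under every Ctrl mouse, and AngII+LY 3 reached into the AngII range. The log2 fold change was −0.96 ± 0.39 (SE, adjusted p = 0.164 by edgeR). Without AngII 4, the highest mouse, it was −0.68, without AngII+LY 1 it was −0.93, and without Ctrl 1, AngII 4 and AngII+LY 4 it was −0.38, each with an unadjusted p above 0.05. Sele had 1570, 1422, 3057 and 3384 in Ctrl, 4226, 4076, 2165 and 2554 in AngII and 2204, 1052, 2111 and 542 in AngII+LY. A single AngII+LY mouse exceeded the lowest AngII mouse, by a small margin, and the log2 fold change was −1.14 ± 0.42 (SE, adjusted p = 0.135 by edgeR). Without AngII+LY 2 it was −0.99, with an unadjusted p of 0.0516. Selp was at −0.62 (95% interval −1.53 to 0.29), with 356 normalized counts in AngII+LY 4 and 1703 to 2273 in the other AngII+LY mice. Icam1 was at 0.04 (−0.92 to 0.99), with 1366, 1765, 1208 and 1674 in AngII+LY, each below the lowest Ctrl mouse.

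Pdpn had 1000, 1188, 567 and 814 normalized counts in Ctrl, 673, 1569, 1184 and 1330 in AngII and 1031, 600, 739 and 510 in AngII+LY. The groups overlapped through AngII 1, and the log2 fold change of AngII+LY against AngII was −0.72 ± 0.30 (SE, adjusted p = 0.181 by edgeR). Without AngII 2, 3 or 4 or AngII+LY 2, 3 or 4 it was −0.56 to −0.74, and without Ctrl 1, AngII 4 and AngII+LY 4 it was −0.53, each with an unadjusted p above 0.05. Prox1, with 1442, 837, 682 and 1458 in AngII+LY, was at 0.05 (95% interval −0.58 to 0.69). Erg, with 1185, 1226, 960 and 588, was at −0.20 (−0.81 to 0.41). Sox7 had no overlap between AngII+LY and AngII, 3220 to 4233 against 4315 to 5827 (−0.39), with an unadjusted edgeR p of 0.113. Its exact two-sided permutation p of 0.0286 is that of any 4 against 4 mice without overlap. Sox17 was at 0.21, with an interval of −0.67 to 1.08 that takes in 0.

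None of the flow genes was at an unadjusted p under 0.05 between AngII+LY and AngII. Klf2 had 19473, 24400, 23351 and 11593 normalized counts in AngII+LY, with AngII+LY 4 as low as the lowest AngII mice, and a log2 fold change of 0.24 (95% interval −0.37 to 0.85). Thbd had 21256, 45791, 27434 and 10506, a range that covered the AngII mice (−0.27, 95% interval −1.10 to 0.55). Pecam1 had 44592, 86878, 56123 and 23696 (−0.07, 95% interval −0.86 to 0.72). In each of Klf2, Thbd, Pecam1 and Vcam1 the lowest AngII+LY mouse was AngII+LY 4.

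**Figure D3:**
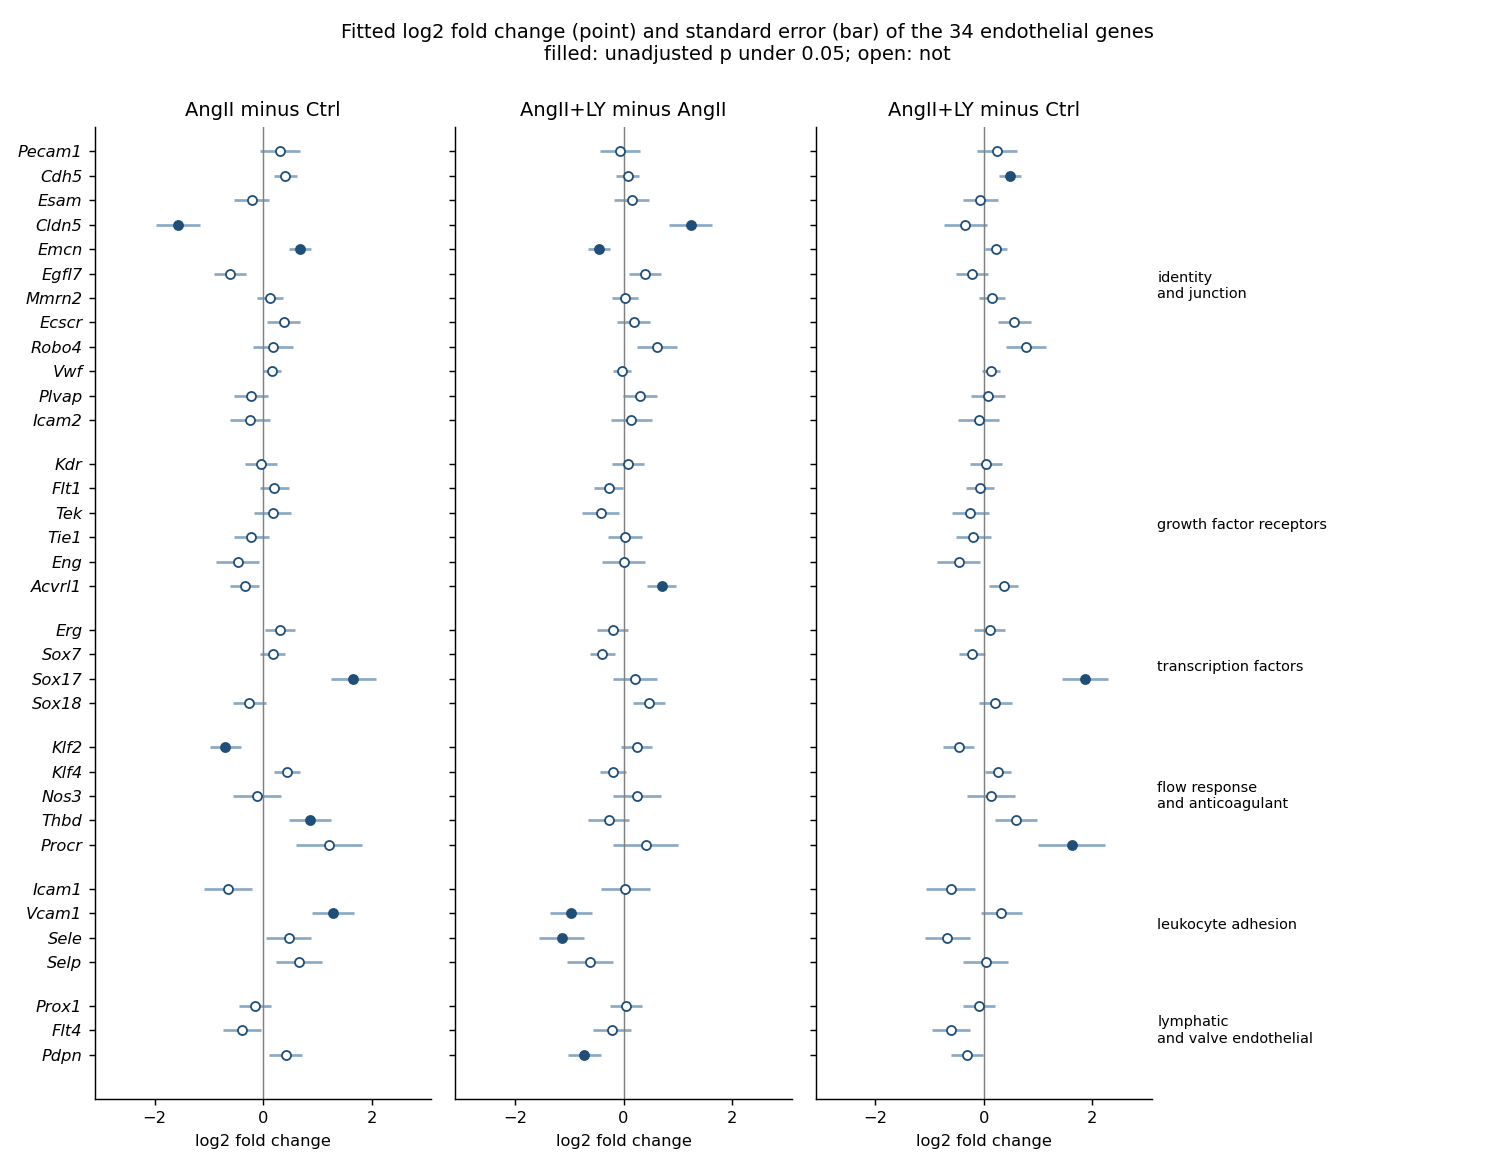
Log2 fold change (points) with its standard error (bars) from the edgeR fit for the 34 genes, grouped by role, in AngII minus Ctrl, AngII+LY minus AngII and AngII+LY minus Ctrl. Filled points mark an unadjusted p under 0.05, which are 6, 6 and 3 genes, and Sox17 is filled at 1.66 and 1.87 in both comparisons with Ctrl.

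AngII+LY was also compared with Ctrl. Sox17, Procr and Cdh5 were higher at an unadjusted p under 0.05, 3 of 34 genes against 11.0% of all genes (4.89% higher and 6.14% lower), and none was lower. No gene passed the call rule with edgeR (0%), and DESeq2 called Sox17 alone of the 34, against 2.48% of the genes with an adjusted p. The median log2 fold change was 0.06 beside −0.02 over all genes. Sox17 was at 1.87 (standard error 0.42, 95% interval 0.97 to 2.77, edgeR adjusted p = 0.182), a 3.65-fold difference, and it stayed at an unadjusted p under 0.05 in all 20 alternatives, from 1.64 to 2.25. Procr had 4659, 15392, 11665 and 785 normalized counts in AngII+LY, so that AngII+LY 4 lay below every Ctrl mouse and the other three above them all. Its log2 fold change was 1.62 ± 0.62 (SE, adjusted p = 0.356 by edgeR). Without Ctrl 2, AngII+LY 2 or AngII+LY 3 it was 1.47, 1.12 and 1.39, each with an unadjusted p above 0.05. Without AngII+LY 4, the low mouse, it was 2.0, and without Ctrl 1, AngII 4 and AngII+LY 4 it was 2.07. Cdh5 ranged from 2062 to 3826 in Ctrl and from 3196 to 4719 in AngII+LY (0.49, standard error 0.21, edgeR adjusted p = 0.407), and without Ctrl 1, Ctrl 2, AngII+LY 1 or AngII+LY 2 it was 0.35 to 0.43 with an unadjusted p above 0.05. The mice did not overlap in Sox17 and Icam1, 2 of 34 genes, against 8.16% of all genes (3.27% higher and 4.89% lower).

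LY alone was compared with Ctrl to ask what the antagonist did without AngII. Vwf, Plvap and Emcn, genes of the identity group, were higher at an unadjusted p under 0.05, 3 of 34 genes against 1.39% of all genes (0.627% higher and 0.763% lower), and none passed the call rule (0%) or was called by DESeq2 (0.111% of genes with an adjusted p). Vwf (von Willebrand factor), the clotting glycoprotein of endothelial storage granules, had 13148, 12919, 17958 and 13546 normalized counts in Ctrl and 27727 and 19507 in LY. Both LY mice lay above the Ctrl mice, and the log2 fold change was 0.71 (standard error 0.21, 95% interval 0.27 to 1.16, edgeR adjusted p = 1). Plvap, the diaphragm protein of fenestrated capillaries, had 8507, 10456, 13778 and 11223 in Ctrl and 25792 and 14398 in LY (0.87, standard error 0.37, edgeR adjusted p = 1). Emcn was at 12221 and 10695 in LY (0.53, standard error 0.24, edgeR adjusted p = 1). Emcn kept an unadjusted p under 0.05 in 6 of 18 alternatives, not in that without LY 1 (0.43), without LY 2 (0.62), without Ctrl 1 (0.49), without Ctrl 2 (0.40) or with GC correction (0.33). Plvap was at 0.39 without LY 1, and at 0.77 without Ctrl 1, 0.85 without Ctrl 2 and 0.88 without Ctrl 4, each with an unadjusted p above 0.05. The 2 LY mice lay above all Ctrl mice in 5 of 34 genes, these and Robo4 and Prox1 (1915 and 1697 normalized counts in LY), against 12.0% of all genes with no overlap (5.64% higher and 6.41% lower). Of the other genes given by mouse above, some had both LY mice inside the Ctrl range and some had 1 beyond it. Cldn5 had 1182 and 1342 normalized counts in LY, Pecam1 46171 and 43526, Klf2 28202 and 23532, Thbd 19947 and 18250, Erg 1023 and 987 and Acvrl1 3274 and 2492, each inside it. Beyond it lay 1 LY mouse of Kdr (5645 and 4500), Icam1 (1928 and 2176), Vcam1 (24443 and 38424), Sele (1403 and 1939) and Pdpn (1201 and 1031). LY 1 had the larger values of Vwf and Plvap, and without it Vwf was at 0.44 and 0 of 34 genes kept an unadjusted p under 0.05. LY 1 also held the larger summed level of 7 platelet genes, 61464 against 18673 in LY 2, and of 6 mesothelial genes, 51779 against 20760. Platelets carry Vwf too, and their part in the Vwf difference was not tested.

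An interaction tested whether LY272015 went with another difference in infused than in uninfused mice. At an unadjusted p under 0.05 it was above 0 for Cldn5 (1.5, standard error 0.65) and below 0 for Emcn (−0.98, standard error 0.31), Vwf (−0.74, standard error 0.27) and Pdpn (−1.05, standard error 0.47), 4 of 34 genes against 13.3% of all genes (5.66% above and 7.64% below 0). None passed the call rule (0%) or was called by DESeq2 (1.86%), and the lowest adjusted p, that of Emcn, was 0.295. Without LY 1, Vwf was at −0.47 with an unadjusted p of 0.158. The interaction of Cldn5 and that of Pdpn had an unadjusted p above 0.05 without either LY mouse, and over all alternatives they kept one under 0.05 in 10 and 7 of 18, against 18 of 18 for Emcn. Vwf itself was at −0.03 between AngII+LY and AngII.

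The log2 fold changes of the set followed the GC content of the genes in AngII minus Ctrl and in AngII+LY minus AngII. Across the 34 genes, Spearman's rho between GC content and log2 fold change was −0.70 in AngII minus Ctrl and 0.72 in AngII+LY minus AngII, and over 19043 genes it was −0.55 and 0.44. Both comparisons hold the same AngII mice, with opposite sign. In AngII+LY minus Ctrl rho was −0.12 in the set and −0.15 over all genes, and in LY minus Ctrl it was −0.19 and −0.22. These correlations run across genes that share the same libraries and are a description, not a test. The set was richer in GC than the genes tested, with a median of 52.6% against 48.6%. Correcting every library for GC content by loess brought rho in the set to −0.23 in AngII minus Ctrl and 0.29 in AngII+LY minus AngII. It moved the median log2 fold change of all genes in AngII minus Ctrl from −0.06 to 0.11, and that of the set from 0.17 to 0.36.

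Corrected for GC content, Sox17 was at 2.27 and Cldn5 at −0.97 in AngII minus Ctrl, both still at an unadjusted p under 0.05 (5.0e-04 and 0.013). Emcn went from 0.67 to 0.08, Klf2 from −0.70 to −0.10 and Vcam1 from 1.29 to 0.81, with unadjusted p of 0.73, 0.71 and 0.06. Thbd kept an unadjusted p under 0.05 at 1.01, and Cdh5 (0.89), Ecscr (0.84), Vwf (0.69), Klf4 (1.13) and Procr (1.68) came under it, so that 8 of 34 genes did, where 14.7% of all genes did in the same corrected fit. In AngII+LY minus AngII, Cldn5 alone of the 34 kept an unadjusted p under 0.05, at 0.88 (0.023), where 15.4% of all genes had one. Emcn turned from −0.45 to 0.12 there, and Acvrl1, Vcam1, Sele and Pdpn went to 0.37, −0.37, −0.86 and −0.57. What made the libraries differ with GC content was not tested.

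**Figure D4:**
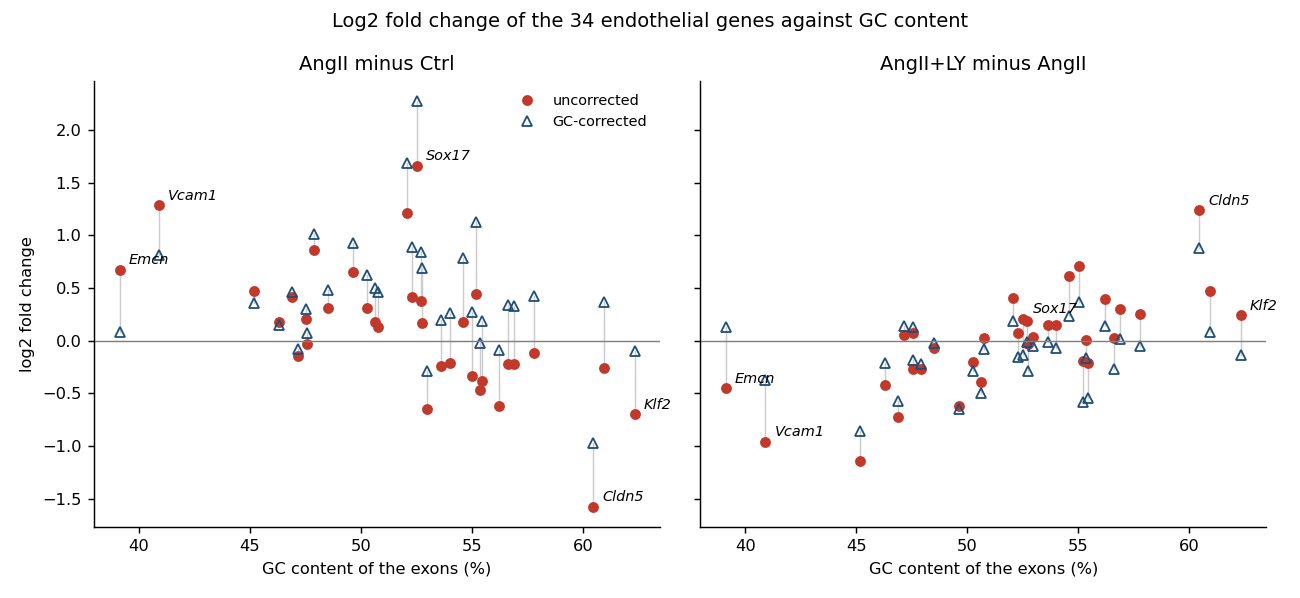
Log2 fold change of the 34 genes against the GC content of their exons (%), in AngII minus Ctrl and AngII+LY minus AngII, uncorrected (filled circles) and after GC correction of each library (open triangles, joined by a line to the uncorrected value). Uncorrected points slope down in AngII minus Ctrl and up in AngII+LY minus AngII; Sox17 and Cldn5 stay away from 0 in AngII minus Ctrl after the correction, where Emcn and Klf2 come close to it.

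Nos3, Klf4 and Thbd were compared with Klf2 across mice, since KLF2 is known to induce Nos3 and Thbd. Over the 14 mice, log2 normalized counts of Klf2 and Nos3 had a Pearson's r of 0.68 (permutation test, adjusted p = 0.0278) and a Spearman's rho of 0.63 (permutation test, adjusted p = 0.0491). Within groups, with group means removed, r was 0.89 (permutation test, adjusted p = 6.4e-04). Without AngII 4 and AngII+LY 4, the mice farthest from the median of Klf2, r was 0.51. With Klf4 and Thbd, r was −0.16 and −0.11 over all mice (permutation tests, both adjusted p = 0.702) and 0.29 and 0.40 within groups. With the mean of 9 immediate early genes, which respond to stress and tissue handling, r was 0.62 (permutation test, adjusted p = 0.0376) and rho was 0.60, and within groups r was 0.39 (permutation test, adjusted p = 0.332). The p-values were adjusted over these 4 relations. The parts of the amount of endothelium and of GC content in each library were not tested. The counts here were not corrected for GC content, which was 62.3% in Klf2, 57.8% in Nos3, 55.2% in Klf4 and 47.9% in Thbd.

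**Figure D5:**
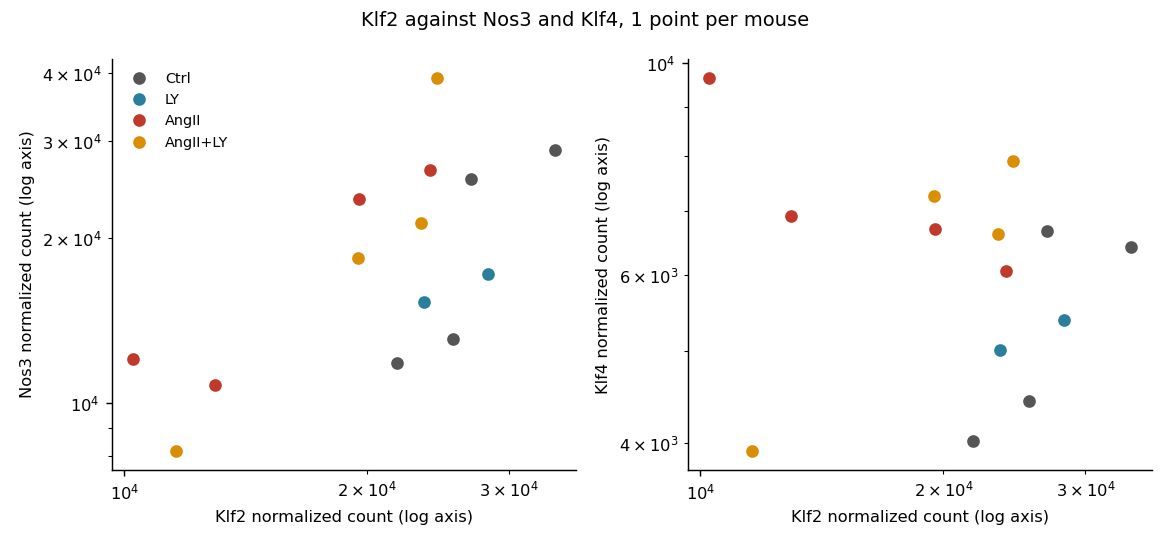
Normalized counts of Nos3 and of Klf4 against those of Klf2 in the 14 mice (log axes, 1 point per mouse, coloured by group). Over all mice r is 0.68 for Nos3 and −0.16 for Klf4, and after group means are removed it is 0.89 and 0.29.

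Other endothelial genes were counted for comparison, from lists of whole pathways. The cut-off used for them took in 25.2% of all genes in AngII against Ctrl (13.4% higher and 11.7% lower). In AngII+LY against AngII it took in 22.5% (10.1% higher and 12.4% lower). Of 34 other endothelial genes, 9 were higher and 3 lower in AngII against Ctrl at an unadjusted p under 0.05 (median log2 fold change 0.24), led by Cd93, Calcrl, Cyyr1 and Bmx, all higher. Of 15 genes of the shear stress pathway, 2 were higher and 3 lower (median 0.12), and of 11 ligands of the receptors 3 were lower, among them Angpt2, the antagonist ligand of TIE2, at −2.85 (standard error 0.87). Of 16 leukocyte integrins, selectin ligands and NF-kB genes tested, 3 were higher and 5 lower (median −0.47). Selplg, the leukocyte ligand of P-selectin, was at −1.84, and Itgb1, the beta chain of the VCAM1 receptor VLA-4, at 0.93. Of 8 genes of protein C and coagulation tested, Pros1 (protein S), the cofactor of activated protein C, was higher at 0.61 in AngII against Ctrl and lower at −1.24 in AngII+LY against AngII. Of 6 valve endothelial genes none was at an unadjusted p under 0.05 in AngII against Ctrl, and Hapln1 alone was lower in AngII+LY against AngII. Of 7 lymphatic genes, 1 was higher and 2 were lower in AngII against Ctrl and 2 were higher in AngII+LY against AngII. In AngII+LY against AngII, 4 of the 34 other endothelial genes were higher and 3 lower (median log2 fold change −0.15). Of the 11 ligands, 3 were higher and 2 lower there (median 0.20). Lower there were also 1 of 15 shear stress genes, 1 of 16 leukocyte and NF-kB genes and 2 of 8 coagulation genes, with 0 higher in these 3 lists.

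Markers of other cell types moved with the same groups, and their part in the endothelial results was not tested. Markers were counted at an unadjusted p under 0.05. That cut-off took in 25.2% of all genes in AngII against Ctrl and 22.5% in AngII+LY against AngII. In AngII+LY against Ctrl the share was 11.0%, and in LY against Ctrl it was 1.39%. Of 7 coronary capillary genes, 5 were higher in AngII+LY against AngII, with summed normalized counts of 26085 to 63130 against 15383 to 58760. Of 12 cardiomyocyte genes 8 were higher there, with sums of 987975 to 2695514 against 396945 to 1047059, where Ctrl held 394600 to 1781736. Of 10 interstitial and fibroblast genes 6 were lower there, with sums of 307009 to 536941 against 807662 to 933019, and Vcam1 and Pdpn, which fibroblasts also express, lay lower with them. Of 7 platelet genes 4 were higher in AngII against Ctrl, with sums of 17850 to 204225 against 11996 to 37725, the largest in AngII 4. Of 9 immediate early genes 7 and of 9 macrophage genes 6 were lower in AngII against Ctrl, with sums of 25491 to 44179 against 48326 to 65188 and of 26638 to 49070 against 29021 to 112042. Of 9 adipocyte genes 7 and of 9 smooth muscle genes 4 were lower in AngII against Ctrl, of 6 mesothelial genes 1 was higher, and of 5 erythroid genes none was at an unadjusted p under 0.05 in any comparison. In AngII+LY against Ctrl, 6 of 7 coronary capillary and 5 of 12 cardiomyocyte genes were higher, and 7 of 10 interstitial, 6 of 9 macrophage, 5 of 9 immediate early and 3 of 9 adipocyte genes were lower. In LY against Ctrl, 5 of 9 smooth muscle and 3 of 9 immediate early genes were lower and 1 of 6 mesothelial genes was higher. No gene of these lists was at 0 in every mouse of a group. The summed level of the 34 endothelial genes ranged over 251430 to 461372 (Ctrl), 359393 to 392622 (LY), 321781 to 455002 (AngII) and 218104 to 529582 (AngII+LY), so the groups overlapped, with AngII+LY 4 lowest. With the libraries scaled to the other 34 endothelial genes in place of all genes, 7 of the 34 were at an unadjusted p under 0.05 in AngII against Ctrl, beside 25.1% of all genes, whose median log2 fold change moved from −0.06 to −0.25, with Sox17 at 1.52 and Cldn5 at −1.76.

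Exons of 17 of the 34 genes overlap another gene, 21 of 23 overlaps on the opposite strand, and whether the counting used strand is not given in the sources used here. The overlaps cover 0.678 to 26.7% of the exon length, most for Nos3 with the antisense gene Gm15587. The overlapping genes in the table had at most 18.6% of the mean count of the endothelial gene (Agpat2 beside Egfl7).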

How the data were processed

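RNA of whole aortic valve leaflets was sequenced in 14 libraries, taken as 1 per mouse (groups from the labels). The methods give more hearts per group for sequencing than there are libraries here, and the reason is not stated. Per the labels and the methods, the authors checked reads with FastQC 0.12.1, trimmed low-quality sequence, aligned to GRCm39 with HISAT2 and counted reads per gene with featureCounts, whose versions and strand setting are not given in the sources used here. The deposited values are labelled as normalized, but they are whole numbers whose totals differ between libraries, and they were taken as raw counts. Low even counts outnumber odd ones (13373 values of 2 and 4872 of 3), and the cause was not tested. Of the rows, 618 genes with 0.0361% of counts were not found in GENCODE vM39, the source of exon lengths, GC content and promoters.

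The 19145 genes that averaged 10 or more counts were fitted in 1 model of 4 groups with TMM normalization and edgeR 4.0.16 (R 4.3.3, quasi-likelihood, common dispersion 0.353), after the script had been tested on simulated data. Calls needed a Benjamini-Hochberg adjusted p under 0.05 over all genes together with a log2 fold change beyond 0.5 in either direction. The study's own model was DESeq2, run here as version 1.42.0. Alternatives were limma 3.58.1, other size factors, no filter, only the 2 groups compared, a replicate block, a loess GC correction, each mouse left out, and, chosen after seeing the data, Ctrl 1, AngII 4 and AngII+LY 4 left out together and scaling to other endothelial genes. Exact permutation tests on single genes were two-sided. They are given only where the groups do not overlap, which for 4 against 4 mice fixes p at 0.0286, so they add nothing to it.

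The members, and the lists of other endothelial genes, shear stress genes, ligands, leukocyte and NF-kB genes, coagulation genes and cell type markers, were chosen with earlier results of these data known. Values in every mouse are given for members at an unadjusted p under 0.05 in AngII minus Ctrl or AngII+LY minus AngII and for the first gene of each role, and for a few others chosen after their values were seen; of other lists, at most 4 genes with the smallest p are named. Mice are separate animals, and the intervals bound the fitted difference between groups, not the range of single mice.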

Additional observations from a re-analysis of the deposited data

Results flagged for a closer look

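Of 102 groups of 4 mice, 1 per gene and group, 4 held a mouse whose gap to the nearest other passed the 95% critical value of Dixon's test, where chance flags about 1 in 20. Robo4 was low in AngII 2, at 764.2 normalized counts against 1155 to 1189 in the other AngII mice. Vwf was high in Ctrl 3, at 17958 against 12919 to 13546. Vcam1 was high in Ctrl 4, at 35736 against 24343 to 25845. Prox1 was low in AngII 2, at 850.0 against 1122 to 1168.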

How the results depend on the processing

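With edgeR 0 of 34 genes were called in every comparison, and DESeq2 called 4 in AngII minus Ctrl, 2 in AngII+LY minus AngII, 1 in AngII+LY minus Ctrl and 0 in LY minus Ctrl; without each mouse in turn edgeR called 0 to 2, 0 to 1 and 0 in the first 3. Counts at an unadjusted p under 0.05 are given without each mouse in turn, with the share of all genes in the same fit. In AngII minus Ctrl the lowest was 4 (without AngII 3, 20.6%, or AngII 4, 16.5%). The highest there was 8 (without Ctrl 4, 25.5%, or AngII 1, 29.6%). In AngII+LY minus AngII they ranged from 2 (without AngII+LY 2, 21.5%) to 6 (without AngII 1, 25.4%). In AngII+LY minus Ctrl they ranged from 1 (without Ctrl 2, 11.1%, or AngII+LY 2, 13.4%) to 6 (without AngII+LY 4, 10.7%). The highest count in LY minus Ctrl was 5 (without Ctrl 3, 1.42%). For the interaction it was 4 (without Ctrl 1, Ctrl 2, AngII 1 or AngII+LY 1, 9.5 to 16.6%). Leaving out an LY mouse leaves 1, assumed to vary like the other groups, so no count is given here. In AngII+LY minus AngII the count was 1 with GC correction (15.4% of all genes), 2 without Ctrl 1, AngII 4 and AngII+LY 4 (13.6%), and 1 with both (12%). In AngII+LY minus Ctrl these gave 6 (14.6%), 6 (10.1%) and 10 (14.1%), and scaling to other endothelial genes gave 5 (11.7%). Mice that shared a replicate number were little correlated once group means were removed (12 pairs, correlations of −0.128 to 0.090). Such low values show no pairing by replicate number but cannot exclude one. With the numbers as a replicate block the counts were 5 (23.1% of all genes), 4 (19.6%), 3 (9.96%) and 2 (2.02%) in the order above. The interaction then had 2 (13%). The block with GC correction gave 1 in AngII+LY minus AngII (12.9%) and 5 in AngII+LY minus Ctrl (12.9%). Of 426 values of single genes under alternatives, 313 kept direction and side of the threshold, 109 lost the unadjusted p under 0.05 and 4 turned sign. These were Emcn in AngII+LY minus AngII with GC correction (0.124), with the block as well (0.12) and with the 3 libraries left out as well (0.186), and Vcam1 there with GC correction and the 3 libraries left out (0.151); the cause was not tested.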
